A study of Homo sapiens with 12 samples.

Results

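HMOX1, HMOX2, BLVRA, BLVRB, ALAS1 and FECH are 6 genes of haem synthesis and breakdown. They were chosen by name, with earlier results of these data known, and each matched 1 of the 47634 gene identifiers listed for every library. All 6 passed the filter on low counts and were among the 11051 genes tested. They were followed in HepG2, an established human hepatocellular carcinoma line, in 4 groups of 3 libraries. Wild type HepG2 and HepG2 with a knockout (KO) of ATP7B, the copper-exporting ATPase mutated in Wilson disease, were each left untreated or kept with copper for 24 h before total RNA was taken. The labels give 1 KO line without its editing site or clone number, and they give no copper dose. They call the 3 libraries of a group biological replicates. All libraries come from 3′ mRNA sequencing (QuantSeq), which reads a transcript once, close to its poly(A) tail, so levels are given as CPM, the count scaled to a common library total, with no length correction.

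Haem is made in a chain of enzymes that starts with ALAS1, the rate-limiting 5-aminolevulinate synthase of liver and most other tissues, and ends with FECH, the ferrochelatase that inserts iron into protoporphyrin. It is broken down by haem oxygenase, the inducible HMOX1 or the constitutive HMOX2, which opens the ring and releases iron, carbon monoxide and biliverdin. Biliverdin is then reduced by BLVRA, the main adult biliverdin reductase, or by BLVRB, a broader NADPH-dependent flavin reductase that acts on other biliverdin isomers. In liver cells HMOX1 is known as a gene switched on by haem, metals and oxidants through NRF2 and relieved from repression by BACH1, and ALAS1 as a gene held down by haem and driven by PPARGC1A.

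The libraries held 3561723 to 3829151 counts in wild type untreated, 1873703 to 2581954 in wild type copper, 976658 to 3277087 in KO untreated and 2388597 to 2807634 in KO copper. A count of 3 equals 3.07 CPM in the shallowest library and 0.783 CPM in the deepest. ATP7B was counted in all groups, at 12.4 to 13.1 CPM in wild type untreated, 3.87 to 5.34 CPM in wild type copper, 2.05 to 11.6 CPM in KO untreated and 3.92 to 6.77 CPM in KO copper; reads from the 3′ end do not check a knockout whose site is not given. Wild type copper replicate 1 and KO untreated replicates 1 and 2 stood apart from all other libraries on the first principal component, at 23.9, 111 and 120.4 against values below 0, and KO untreated replicates 1 and 2 are also the shallowest libraries. Mitochondrially encoded genes took 2.97% to 3.8% of counts in wild type untreated and 5.82% to 9.46% in the other 9 libraries. KO untreated replicate 3 correlated with KO untreated replicates 1 and 2 at r = 0.824 and 0.798, against 0.979 to 0.980 among the KO copper libraries. KO untreated replicates 1 and 2 correlated with each other at r = 0.927, so within its own group replicate 3 was the least alike. Which of these libraries is typical of untreated KO cells was not tested. The summed level of 9 hepatocyte-derived markers, ALB and AFP among them, had medians of 18393 CPM in wild type untreated, 8649 in wild type copper, 8913 in KO untreated and 3898 in KO copper. Those of leukocytes, endothelium, fibroblasts and red cells summed to at most 46.6 CPM in any library, with CD3E and HBB at 0 in all 12 and PTPRC at 1 count over all of them. The summed hepatocyte marker level was thus lower with copper and in the KO line, a sum carried mostly by ALB, AFP, TF and APOB. Single markers differed in direction: in untreated KO against untreated wild type cells the means of APOB (3061 against 1896 CPM), SERPINA1 (680 against 541) and FGB (264 against 213) were higher and not called. The part of these markers in the results was not tested; in bulk RNA fewer cells of a kind and less RNA per cell cannot be told apart.

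In RefSeq's promoter windows, which run from 250 bases before to 50 after a gene's start on GRCh38.p14, 5 of the 6 genes were matched. HMOX1 had no entry, so its promoter was not searched and nothing below applies to it. The upstream 250 bases of ALAS1 (chr3:52197833-52198082, plus strand) and BLVRB (chr19:40465746-40465995, minus strand) are shown because both genes rose with copper in the KO line. They are written 5′ to 3′ in the direction of the gene, with capitals marking a match to a metal response element core, TGCACNC or TGCGCNC, on either strand.
ALAS1: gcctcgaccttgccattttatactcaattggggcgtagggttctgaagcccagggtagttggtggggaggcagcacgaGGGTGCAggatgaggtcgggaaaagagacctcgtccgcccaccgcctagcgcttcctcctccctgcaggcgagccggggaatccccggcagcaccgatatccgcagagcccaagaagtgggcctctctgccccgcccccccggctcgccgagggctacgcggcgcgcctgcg
BLVRB: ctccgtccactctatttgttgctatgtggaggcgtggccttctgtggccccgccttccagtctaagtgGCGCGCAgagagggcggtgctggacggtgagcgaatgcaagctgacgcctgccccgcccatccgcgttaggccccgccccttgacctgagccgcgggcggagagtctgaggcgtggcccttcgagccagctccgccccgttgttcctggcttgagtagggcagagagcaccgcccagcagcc
The capitals in ALAS1 are TGCACNC on the opposite strand at position −172 from the start, and those in BLVRB are TGCGCNC on the opposite strand at −182.

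Past the printed stretch, BLVRB holds TGCACNC on the gene's own strand at 36 bases after the start, and ALAS1 holds the NRF1 palindrome core CGCATGCG at 23 bases after it. HMOX2 has 2 listed starts, and the window of the first (chr16:4474486-4474735, plus strand) holds TGCGCNC at −225 and the E-box CACGTG at −28, while that of the second (chr16:4495608-4495857, plus strand) holds none of the 6 patterns. BLVRA holds TGCACNC on the opposite strand at −227. FECH holds the antioxidant response element core TGACNNNGC on the opposite strand at −38. The remaining pattern searched, the heat shock element pair GAANNTTC, was in none of these windows, and no match overlapped another. Of 34943 promoters, 12.1% held TGCACNC, 19.9% TGCGCNC, 13.3% TGACNNNGC, 6.79% GAANNTTC, 7.23% CACGTG and 1.998% CGCATGCG. These are matches of letters only.

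HMOX1 (ENSG00000100292) carried the main change. In wild type untreated cells it stood at 259, 264 and 296 CPM in replicates 1, 2 and 3, and in wild type copper at 6385, 4409 and 3935 CPM. The KO untreated libraries gave 1369.7, 1173 and 617 CPM, and the KO copper libraries 6306, 6449.8 and 6549.6 CPM. Every copper library lay above every untreated library, and every KO untreated library lay above every wild type untreated one, whereas wild type copper replicate 1 reached into the range of KO copper. Group means ± SD (n = 3) were 273 ± 19.9 CPM, 4909.8 ± 1299.6 CPM, 1053 ± 390.4 CPM and 6435 ± 123 CPM in the order given. On the scale of CPM means, with 1 fragment per transcript, HMOX1 moved from rank 592 to rank 16 of the 11051 tested genes with copper in wild type, and from rank 100 to rank 12 in the KO line. It then made up 0.478% and 0.643% of all counts.

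**Figure D1:**
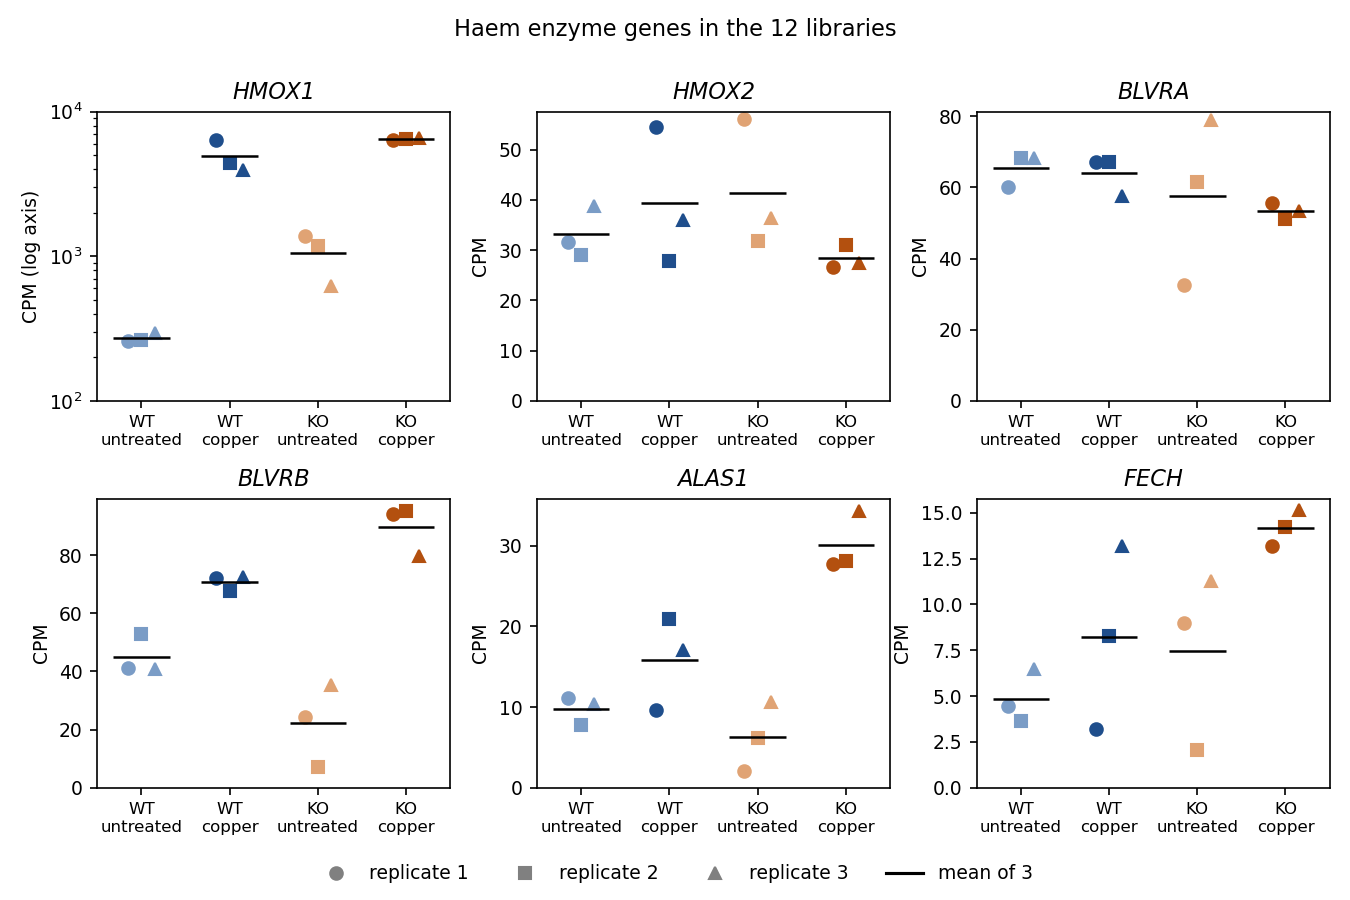
CPM of the 6 haem genes (y axis; log scale for HMOX1 only) in each library of the 4 groups (x axis; WT is wild type). Points are single libraries, shaped by replicate, and the bar is the mean of 3; HMOX1, BLVRB, ALAS1 and FECH have their highest group mean in KO copper, and BLVRA and BLVRB scatter most widely in KO untreated.

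With copper, HMOX1 rose 18.4-fold in wild type cells, a log2 fold change of 4.20 ± 0.35 (SE) with a 95% interval of 3.44 to 4.96 and an adjusted p of 2.7e-05 in edgeR's quasi-likelihood test with Benjamini-Hochberg adjustment over the 11051 genes. In the KO line it rose 6.54-fold, by 2.71 ± 0.33 (interval 2.0 to 3.42, adjusted p 0.00015). Without copper, HMOX1 was already 3.59-fold higher in KO than in wild type cells, by 1.84 ± 0.32 (interval 1.15 to 2.54, adjusted p 0.0019). In copper the lines were not called apart, with a difference of 0.35 ± 0.31 and an interval of −0.32 to 1.02 (adjusted p 0.48), which does not show that they reached the same level. HMOX1 kept all 3 of its calls when any single library was left out.

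The order of HMOX1 levels was thus wild type untreated, KO untreated, wild type copper and KO copper, and only the last pair did not differ beyond its spread in the tests run; KO untreated against wild type copper was not tested. The copper effect on HMOX1 was smaller in the KO line by 1.49 ± 0.44 on the log2 scale (interval of the difference −2.44 to −0.54), a difference that was not called (adjusted p 0.06). The KO copper effect, the untreated KO difference and this difference all use the 3 KO untreated libraries. Setting aside the 3 libraries that stood apart leaves KO untreated with replicate 3 alone, assumed to vary like the other groups. HMOX1 was then higher in untreated KO cells by 0.98 and rose with copper by 3.56 in the KO line. A single library has no spread of its own, so effect sizes alone are given here. Without those libraries, the HMOX1 difference between the lines in copper was 0.54, and that of its copper effects was −0.44. The difference of the copper effects was called without KO untreated replicate 3 (−1.88, adjusted p 6.4e-05).

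HMOX2, the constitutive haem oxygenase, had no call in any of the 5 comparisons. It stood at 31.6, 29 and 38.7 CPM in wild type untreated and 54.4, 27.9 and 36 CPM in wild type copper. In KO untreated it stood at 56.1, 31.7 and 36.3 CPM and in KO copper at 26.7, 31 and 27.5 CPM. Wild type copper replicate 1 and KO untreated replicate 1 were the high libraries, and the KO untreated and KO copper ranges were the only copper pair that did not overlap. Means ± SD were 33.1 ± 5.05 CPM, 39.4 ± 13.6 CPM, 41.4 ± 13 CPM and 28.4 ± 2.28 CPM. The intervals of the log2 copper effect were −0.34 to 0.90 in wild type and −1.07 to 0.21 in KO cells (adjusted p 0.54 and 0.27), which does not show that it stayed level. For KO against wild type the intervals were −0.42 to 0.83 untreated and −1.14 to 0.12 in copper (adjusted p 0.61 and 0.27).

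The share of HMOX1 in the counts of both haem oxygenases, a ratio within a library that no scaling between libraries can change, followed the HMOX1 level. It was 89.1%, 90.1% and 88.4% in wild type untreated, 99.2%, 99.4% and 99.1% in wild type copper, 96.1%, 97.4% and 94.4% in KO untreated, and 99.6%, 99.5% and 99.6% in KO copper. The exact (Clopper-Pearson) 95% interval of a single library was widest in wild type untreated replicate 1, at 87.1% to 90.9%, and covers counting error only. No 2 groups overlapped. The mean share was higher with copper by 9.996 percentage points in wild type and 3.6 in KO cells, and the KO was 6.75 points above wild type untreated and 0.354 points above it in copper. An exact two-sided permutation test of 3 libraries against 3 gave p = 0.1 for each of the 4 comparisons (0.1 after adjustment over them), which is the smallest p this design can give. Counted as fragments, each HMOX2 count came with 7.63 to 9.10 HMOX1 counts in wild type untreated and with 208 to 238 in KO copper.

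Of the biliverdin reductases, BLVRB was called in 2 comparisons and BLVRA in none. BLVRB, the flavin and biliverdin reductase, stood at 41.1, 53 and 40.7 CPM in wild type untreated and 72, 67.5 and 72.4 CPM in wild type copper. In KO untreated it stood at 24.2, 7.17 and 35.4 CPM, from counts of 35, 7 and 116, and in KO copper at 94, 95 and 79.6 CPM. The 4 groups did not overlap: KO untreated was lowest, followed by wild type untreated, wild type copper and KO copper, with KO untreated replicate 2 far below the other libraries of its group. Means ± SD were 44.9 ± 6.99 CPM, 70.7 ± 2.72 CPM, 22.3 ± 14.2 CPM and 89.6 ± 8.62 CPM.

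In the KO line BLVRB rose 4.19-fold with copper, by 2.07 ± 0.35 (interval 1.30 to 2.83, adjusted p 0.0012), and this call held with every single library left out. In wild type cells the BLVRB copper effect was 0.68 ± 0.33 (interval −0.04 to 1.40) and not called (adjusted p 0.19). It was called at a like size without KO untreated replicate 2 (adjusted p 0.024), without KO untreated replicate 3 (0.021), and without the 3 libraries that stood apart (0.70, adjusted p 0.00015). Without copper, BLVRB was 2.11-fold lower in KO than in wild type cells, at −1.08 ± 0.35 (interval −1.83 to −0.32, adjusted p 0.034). That call ended without wild type untreated replicate 1, 2 or 3 (adjusted p 0.067, 0.11 and 0.065) or without KO untreated replicate 1 (0.07). It ended too when the untreated groups alone entered the fit (0.15). The difference was −0.55 without the libraries that stood apart, with KO untreated then replicate 3 alone.

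In copper the BLVRB difference between the lines was 0.31 ± 0.33 (interval −0.41 to 1.03, adjusted p 0.57), so of the neighbours in its order of levels KO untreated and wild type untreated alone differed beyond the spread of the fit. The BLVRB copper effect was larger in the KO line by 1.39 ± 0.48 (interval 0.35 to 2.43), which was not called (adjusted p 0.086). DESeq2 called it (1.32, adjusted p 0.033), as did the fit with no filter on low counts (0.03) and the fit without KO untreated replicate 3 (1.72, 0.0019). Without the libraries that stood apart it was 0.82, with KO untreated then replicate 3 alone.

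BLVRA, the main biliverdin reductase, stood at 60.1, 68.2 and 68.2 CPM in wild type untreated and 67.2, 67.1 and 57.7 CPM in wild type copper. In KO untreated it stood at 32.6, 61.4 and 79 CPM and in KO copper at 55.6, 51.1 and 53.3 CPM. The KO untreated libraries alone spanned the range of all others, with replicate 1 lowest and replicate 3 highest of the 12, and in copper the KO libraries lay just below the wild type ones. Means ± SD were 65.5 ± 4.67 CPM, 64 ± 5.47 CPM, 57.7 ± 23.5 CPM and 53.3 ± 2.24 CPM. No comparison was called. The log2 copper effects of BLVRA had intervals of −0.55 to 0.53 in wild type and −0.55 to 0.56 in KO cells, and the differences of KO from wild type had intervals of −0.85 to 0.24 untreated and −0.84 to 0.25 in copper (adjusted p 0.99, 0.99, 0.36 and 0.47). Without KO untreated replicate 3 the untreated difference was called, at −0.56 (adjusted p 0.042). A processed pseudogene on the same strand lies within BLVRA in the gene annotation. It does not cover the annotated 3′ end of BLVRA, close to which this method reads, and whether reads are shared was not tested.

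On the synthesis side, ALAS1 was highest in copper-treated KO cells. It stood at 11.1, 7.83 and 10.4 CPM in wild type untreated and 9.61, 20.9 and 17 CPM in wild type copper. In KO untreated it stood at 2.08, 6.14 and 10.7 CPM, from counts of 3, 6 and 35, and in KO copper at 27.8, 28 and 34.2 CPM. The KO copper libraries lay above all 9 others, while wild type copper replicate 1 fell inside the wild type untreated range and KO untreated replicate 3 inside it as well. Means ± SD were 9.76 ± 1.71 CPM, 15.9 ± 5.75 CPM, 6.30 ± 4.30 CPM and 30.02 ± 3.65 CPM. From low to high the order was KO untreated, wild type untreated, wild type copper and KO copper, and none of these neighbours was called apart.

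ALAS1 rose 4.76-fold with copper in the KO line, by 2.25 ± 0.41 (interval 1.36 to 3.14, adjusted p 0.0017), in every fit that left out a single library. The size differed with the untreated libraries used: it was 3.0 without KO untreated replicate 3. It was 1.66 without the libraries that stood apart, where KO untreated is replicate 3 alone. In wild type cells the copper effect on ALAS1 was 0.73 ± 0.38 (interval −0.09 to 1.55) and not called (adjusted p 0.22). It was called without KO untreated replicate 3 (0.78, adjusted p 0.0457) and without the libraries that stood apart (1.01, adjusted p 0.0007). ALAS1 was not called between the lines, with differences of −0.64 ± 0.42 untreated (interval −1.55 to 0.27, adjusted p 0.25) and 0.88 ± 0.37 in copper (interval 0.09 to 1.67, adjusted p 0.13).

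Those ALAS1 differences depended on the libraries used. Without KO untreated replicate 3, the untreated difference was −1.41 (adjusted p 0.026), the one in copper was 0.81 (0.03), and both were called, as was the larger copper effect in the KO line (2.22, 0.0043). With all libraries that larger effect was 1.52 ± 0.56 (interval 0.32 to 2.73, adjusted p 0.096). Without the libraries that stood apart, the ALAS1 difference between the lines was 0.58 in copper and −0.070 untreated. The untreated value then uses KO untreated replicate 3 alone. ALAS2, the red cell paralog of ALAS1, had 0 of 31340096 counts over all libraries, which allows up to 0.0957 CPM.

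FECH, the last enzyme, had the fewest counts of the 6 genes when summed over the 12 libraries, though ALAS1 was lower than FECH in KO untreated. It stood at 4.48, 3.66 and 6.46 CPM in wild type untreated (counts 17, 14 and 23) and 3.20, 8.28 and 13.2 CPM in wild type copper (6, 19 and 34). In KO untreated it stood at 9.01, 2.05 and 11.3 CPM (13, 2 and 37), and in KO copper at 13.2, 14.2 and 15.1 CPM (37, 34 and 38). The KO copper libraries lay above all others, but KO copper replicate 1 (13.178 CPM) and wild type copper replicate 3 (13.168 CPM) were closer than 1 count. In KO copper replicate 1 a count equals 0.356 CPM. The lowest values came from wild type copper replicate 1 and KO untreated replicate 2. Means ± SD were 4.87 ± 1.44 CPM, 8.22 ± 4.98 CPM, 7.45 ± 4.81 CPM and 14.2 ± 0.976 CPM, and none of the tested pairs of groups was called apart.

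FECH had no call: its log2 copper effects were 0.81 ± 0.49 in wild type (interval −0.24 to 1.87, adjusted p 0.29) and 0.92 ± 0.48 in KO cells (interval −0.11 to 1.95, adjusted p 0.15). KO against wild type gave 0.61 ± 0.50 untreated (interval −0.47 to 1.70, adjusted p 0.36) and 0.72 ± 0.46 in copper (interval −0.29 to 1.72, adjusted p 0.33). Without the libraries that stood apart, FECH was higher with copper in wild type by 1.22. In untreated KO cells, then replicate 3 alone, it was higher than in wild type by 1.02.

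Counted over the comparisons, copper raised 1 of the 6 genes in wild type cells, where 14.9% of all tested genes were called (8.23% higher and 6.68% lower). It raised 3 of 6 in the KO line, where 33.7% were called (15.2% higher and 18.5% lower), and lowered none in either line. KO against wild type untreated gave 1 higher and 1 lower of 6, beside 31.9% of all genes (17.9% higher and 14% lower). In copper none of 6 was called between the lines, beside 13.8% of all genes (5.77% higher and 8.03% lower), and none for the difference of the copper effects, beside 4.93% (1.26% higher and 3.67% lower). At an unadjusted p under 0.05 the quasi-likelihood test held 1 of 6 (ALAS1) for the lines in copper and 3 of 6 (HMOX1, BLVRB and ALAS1) for the difference of the copper effects. The share of all genes at that looser threshold was not taken, and the shares above do not apply to it. DESeq2 called 0 and 2 of 6 (HMOX1 and BLVRB), beside 2022 and 1841 of all 11051 genes. Non-overlapping libraries with copper on the high side were seen for HMOX1 and BLVRB in wild type (21.3% of all genes) and for HMOX1, BLVRB, ALAS1 and FECH in the KO line (19.1%). For KO above wild type they were seen for HMOX1 untreated (25.7%) and for ALAS1, FECH and BLVRB in copper (26.4%), for FECH by less than 1 count. On the low side were none of the 6 with copper in wild type (27.1%), HMOX2 with copper in KO cells (25.1%), BLVRB in untreated KO cells (19.1%) and BLVRA in KO cells in copper (20%). The median log2 copper effect over the 6 genes was 0.70 in wild type and 1.49 in KO cells, beside −0.03 and 0.01 over all genes. The 6 genes and the lists below were chosen with earlier results of these data known. Their counts and medians beside those of all genes are thus descriptions only.

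Without the 3 libraries that stood apart, 4 of the 6 genes were called higher with copper in wild type (40% of 11955 genes called either way), 3 of 6 in the KO line (39.6%), 2 higher and 1 lower for the KO untreated (34.6%), and 2 higher for the KO in copper (37.9%). A count of members near such a share is no result about haem genes. The counts that use KO untreated rest there on replicate 3 alone, with its spread borrowed from the other groups.

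**Figure D2:**
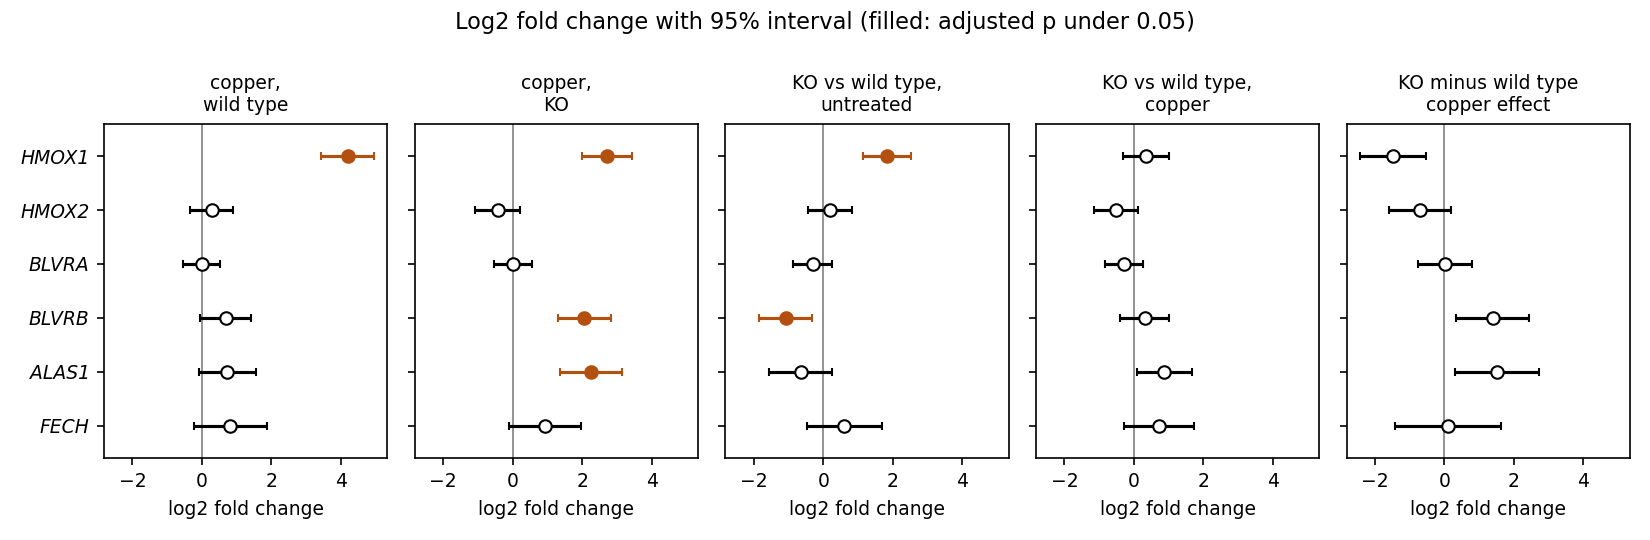
Log2 fold change of each haem gene (x axis) with its 95% interval in the 5 comparisons, 1 panel each; the last panel is the copper effect in ATP7B KO minus that in wild type. Filled points have an adjusted p under 0.05; HMOX1 is filled in 3 panels, BLVRB in 2 and ALAS1 in 1.

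**Figure D3:**
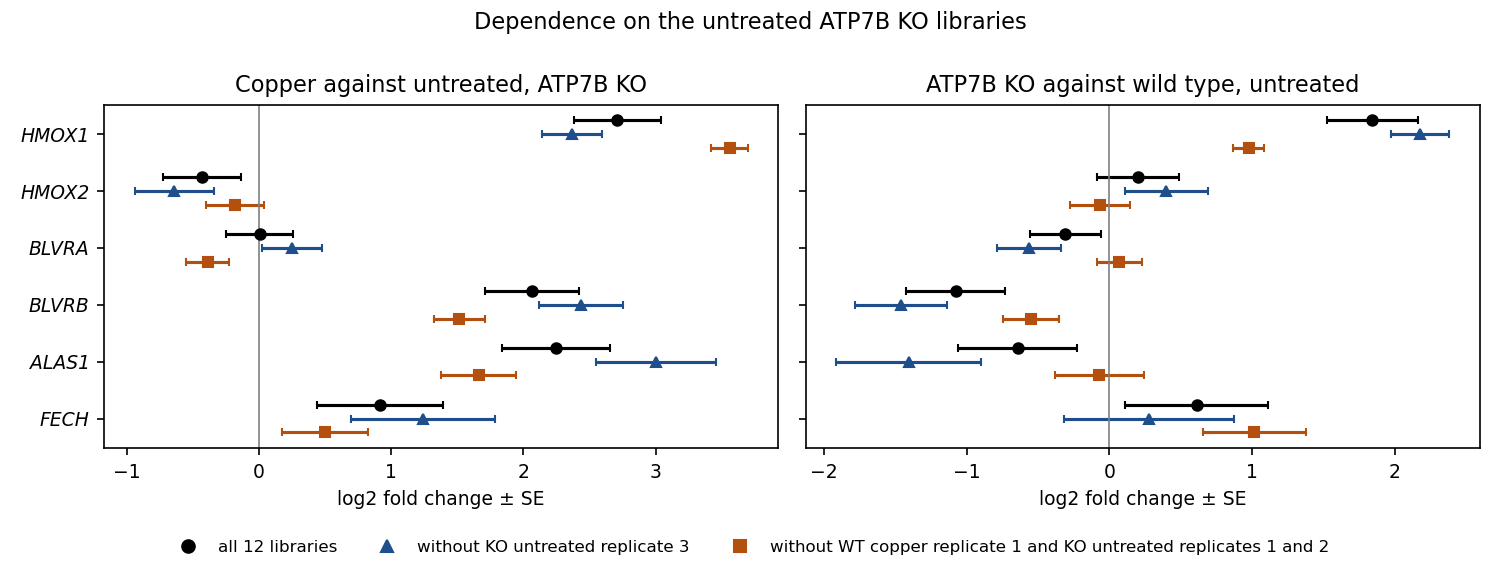
Log2 fold change ± SE (x axis) of each haem gene in 2 comparisons that rest on the KO untreated libraries. The difference of the copper effects, which also rests on them, is not shown. Fits are with all 12 libraries, without KO untreated replicate 3, and without the 3 libraries that stood apart (KO untreated replicate 3 alone). HMOX1, BLVRB and ALAS1 stay above 0 with copper in all 3 fits, and the HMOX1 difference between untreated lines runs from 0.98 to 2.18.

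Of the 6 other enzymes of haem synthesis tested, 2 fell with copper in wild type cells and 2 in KO cells, and none was called higher (all genes: 8.23% higher and 6.68% lower in wild type, 15.2% and 18.5% in KO). UROD, named after its values were seen and not called, stood in KO cells at 22.2, 53.2 and 79 CPM untreated (mean 51.5 ± 28.5). In copper it stood there at 84.8, 67.4 and 72.1 CPM (mean 74.7 ± 8.99), and the ranges overlapped. ALAD, which joins a pair of aminolevulinate molecules into porphobilinogen, fell from 31.9, 29.5 and 35.4 CPM to 11.7, 10.5 and 11.2 CPM with copper in wild type cells (−1.50 ± 0.29, adjusted p 0.0057), and the groups did not overlap. In KO cells ALAD went from 12.5, 7.17 and 20.1 CPM to 6.41, 6.70 and 4.38 CPM (−1.13 ± 0.33, adjusted p 0.019), a call that ended without KO untreated replicate 3 (0.079), KO copper replicate 1 (0.0505) or KO copper replicate 3 (0.089). ALAD was also lower in untreated KO than in untreated wild type cells (−1.33 ± 0.29, adjusted p 0.0061), a difference of −0.88 once the libraries that stood apart were set aside. UROS, which closes the uroporphyrinogen ring, fell in wild type cells from 10.8, 11 and 12.9 CPM to 5.34, 3.92 and 5.81 CPM (−1.17 ± 0.26, adjusted p 0.012), a call that ended when wild type untreated replicate 3 (0.063) or replicate 2 of the copper group (0.061) was left out. UROS was also called lower with copper in KO cells, from 18, 19.5 and 17.7 CPM to 9.26, 8.79 and 11.5 CPM. That call ended in 7 of the 12 fits that left out a single library. The medians of this list were −0.63 in wild type and 0.36 in KO cells, so the median and the calls differ in sign in the KO line. With all libraries in the fit, ALAS1 and ALAD, the first enzymes of the pathway, thus moved in opposite directions in KO cells.

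Among 17 tested genes of haem transport, 1 rose with copper in wild type, and 2 rose and 6 fell in KO cells (medians −0.33 and −0.17, beside −0.03 and 0.01 over all genes). Of all genes 8.23% rose in wild type, and 15.2% rose and 18.5% fell in KO cells. SLC48A1, the haem transporter HRG1, stood at 5.01, 4.70 and 7.02 CPM in wild type untreated, 20.3, 15.7 and 17.8 CPM in wild type copper, 24.2, 27.6 and 27.8 CPM in KO untreated and 39.2, 45.2 and 53 CPM in KO copper. The 4 groups did not overlap and stood in that order from low to high. SLC48A1 rose with copper in wild type (1.71 ± 0.24, adjusted p 0.00083) and in KO cells (0.90 ± 0.22, 0.0081, or 0.058 with no filter on low counts), and was higher in KO than in wild type cells untreated (2.12 ± 0.24, 0.00019) and in copper (1.31 ± 0.22, 0.0024). HPX, the plasma haem scavenger hemopexin, stood at 2.37, 2.09 and 3.65 CPM in wild type untreated against 13.9, 16.4 and 13.4 CPM in KO untreated, and was higher in KO cells by 2.27 ± 0.34 (adjusted p 0.00092). LRP1, a receptor that takes up the haem-hemopexin complex, fell with copper in KO cells from 88.7, 109 and 54.3 CPM to 15, 19.7 and 17.5 CPM (−2.15 ± 0.34, adjusted p 0.00082), a change of −1.47 with the 3 libraries that stood apart set aside.

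Of 14 tested regulators of HMOX1 and ALAS1, 4 rose and 1 fell with copper in wild type, and 5 rose and 2 fell in KO cells (medians 0.21 and 0.24), beside 8.23% and 6.68% of all genes in wild type and 15.2% and 18.5% in KO cells. The small MAF proteins, which pair with NRF2 or BACH1 on DNA, included the largest change of this list in the KO line. It was that of MAFF, which stood at 16.9, 23.5 and 21.9 CPM in wild type untreated, 71.5, 77.6 and 84.8 CPM in wild type copper, 1.39, 5.12 and 3.97 CPM in KO untreated and 88.7, 88.3 and 94.4 CPM in KO copper. It rose by 1.93 ± 0.24 in wild type (adjusted p 0.00048) and by 4.82 ± 0.31 in KO cells (2.2e-06), from a KO untreated level below that of wild type (−2.71 ± 0.31, 0.00022). MAFG rose in KO cells, from 9.70, 17.4 and 41.5 CPM to 254, 221 and 229 CPM (3.43 ± 0.41, adjusted p 0.00014), and was not called in wild type (0.47 ± 0.37, 0.42). The KO value was 4.20 without KO untreated replicate 3, where it was called. It was 2.68 with the 3 libraries that stood apart set aside, which leaves KO untreated replicate 3 alone. MAFK rose in both lines, by 1.31 ± 0.19 in wild type (0.00087) and 1.42 ± 0.20 in KO cells (0.00036).

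NFE2L2, which encodes NRF2, and BACH1, the repressor of HMOX1, are named after their values were seen. NFE2L2 had no call with copper in wild type (0.02 ± 0.21, adjusted p 0.97) and fell in KO cells from 252, 156 and 172 CPM to 99.7, 107 and 106 CPM (−0.78 ± 0.21, adjusted p 0.014). That call ended without KO untreated replicate 1 (−0.52, adjusted p 0.062), KO copper replicate 1 (0.0538) or KO copper replicate 3 (0.0518), and with only the KO groups in the fit (0.071). BACH1 rose in KO cells from 7.62, 4.10 and 8.85 CPM to 17.5, 20.5 and 15.1 CPM (1.41 ± 0.32, adjusted p 0.0061), a call that held with every single library left out, and was not called in wild type (0.40 ± 0.30, 0.39).

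PPARGC1A, the coactivator that drives ALAS1 in fasted liver, fell with copper in wild type from 30.1, 31.3 and 28.6 CPM to 10.1, 3.92 and 6.58 CPM (−2.11 ± 0.34, adjusted p 0.0021), and stood at 6.93, 9.22 and 14 CPM in KO untreated and 1.78, 2.51 and 1.19 CPM in KO copper. EGR1, an immediate early transcription factor, rose with copper from 5.27, 6.27 and 5.33 CPM to 167, 173 and 153 CPM in wild type (4.88 ± 0.21, adjusted p 1.0e-07) and from 5.54, 4.10 and 4.88 CPM to 45.2, 54 and 51 CPM in KO cells (3.47 ± 0.22, 1.9e-06). Wild type copper exceeded KO copper for EGR1 without overlap, by 1.75 ± 0.17 on the log2 scale (adjusted p 0.00011).

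**Figure D4:**
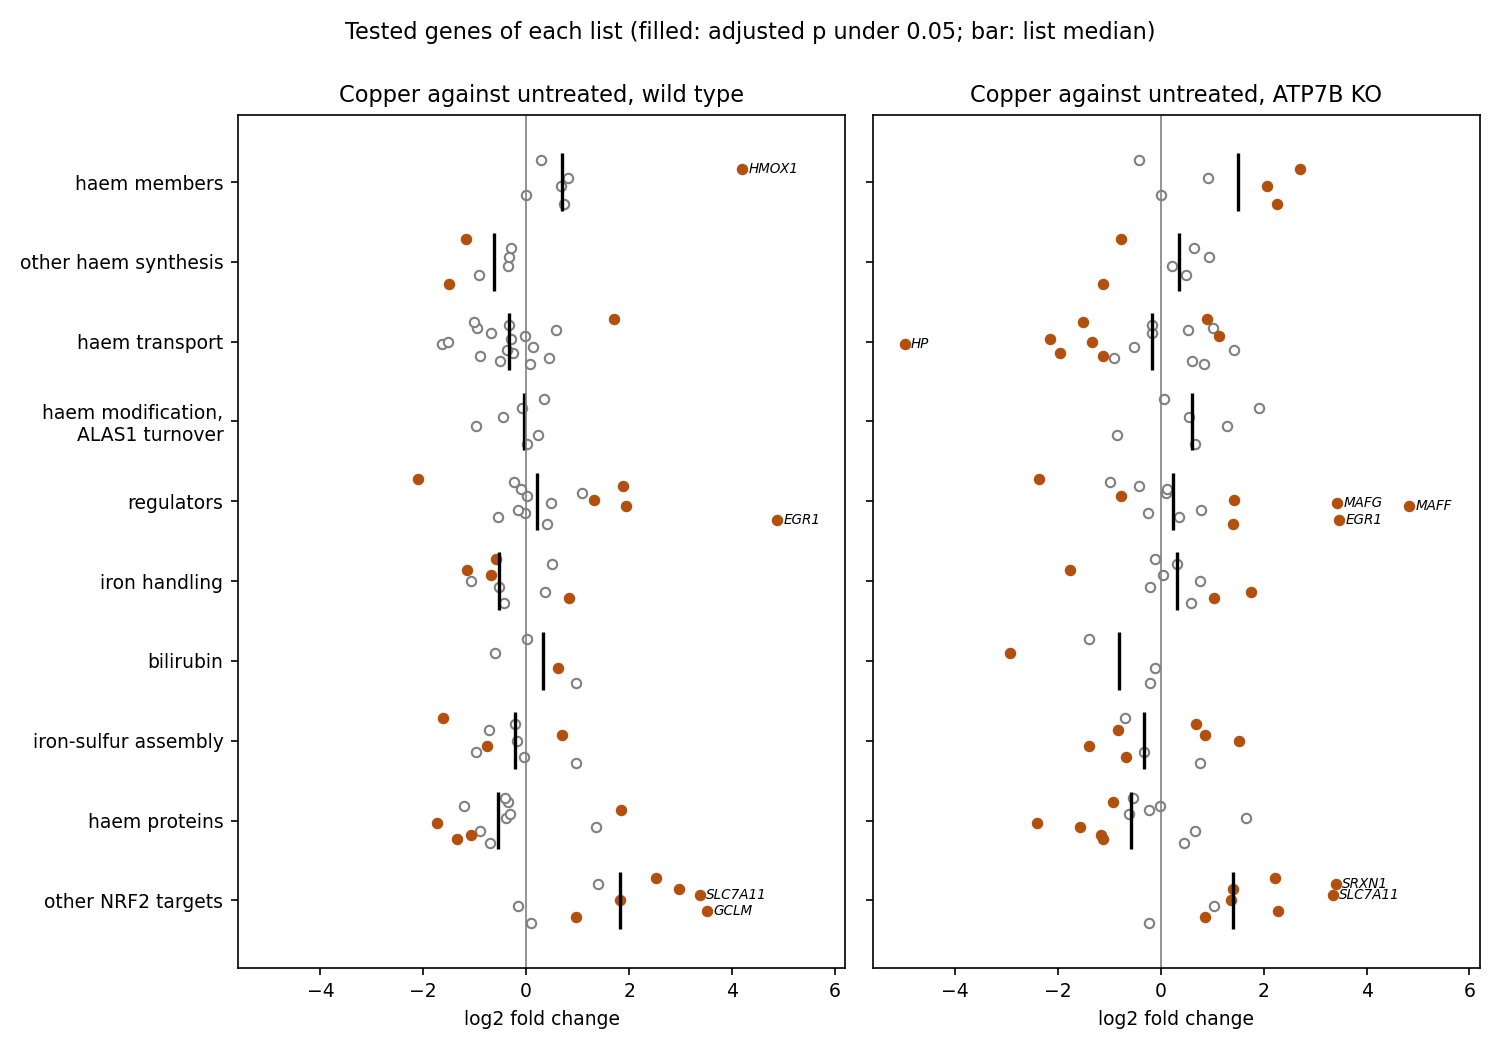
Log2 copper effect (x axis) of every tested gene of each list (y axis) in wild type and in ATP7B KO cells; filled points have an adjusted p under 0.05 and the black bar is the list's median. HMOX1 lies at 4.20 and 2.71, and the other NRF2 targets hold 6 and 7 called genes of 9, all higher.

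Iron released by haem oxygenase is stored in ferritin, and 9 genes of iron handling were tested. With copper, 1 rose and 3 fell in wild type, and 2 rose and 1 fell in KO cells (medians −0.53 and 0.32; all genes 8.23% and 6.68%, and 15.2% and 18.5%). FTH1, the ferritin heavy chain, stood at 719, 688 and 669 CPM in wild type untreated and 1399, 1037 and 1195 CPM in wild type copper. In KO cells it rose from 842, 884 and 908 CPM to 1721, 1748 and 1519 CPM (1.04 ± 0.20, adjusted p 0.0022). FTH1 and FTL have many near-identical processed copies, so how the counting split their reads leaves these values uncertain. The FTH1 rise in wild type (0.84 ± 0.20, adjusted p 0.015) ended without wild type untreated replicate 1, 2 or 3 (adjusted p 0.06, 0.068 and 0.06). SLC11A2, the iron importer DMT1, fell from 119.9, 108 and 111 CPM to 44.3, 51 and 54.2 CPM in wild type (−1.16 ± 0.20, adjusted p 0.0031) and from 113, 122 and 84.5 CPM to 26.4, 32.7 and 28.3 CPM in KO cells (−1.76 ± 0.21, 0.00014).

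For FECH, which carries an iron-sulfur cluster, 9 assembly genes were tested, of which 1 rose and 2 fell in wild type and 3 rose and 3 fell in KO cells (medians −0.22 and −0.33), where 14.9% and 33.7% of all genes were called in either direction. GLRX5, a mitochondrial glutaredoxin of cluster transfer, fell with copper in KO cells (−1.40 ± 0.22, adjusted p 0.00076) from a mean of 409 ± 118 CPM to 142 ± 16.1 CPM. Of 12 tested haem proteins and haem-using enzymes, 1 rose and 3 fell in wild type, and 5 fell and none rose in KO cells (medians −0.55 and −0.58), beside 6.68% of all genes lower in wild type and 18.5% in KO cells. CYGB, the haem protein cytoglobin, fell from 35.1, 34.5 and 37.9 CPM to 11.2, 10.02 and 10.5 CPM in wild type (−1.73 ± 0.24, adjusted p 0.00072) and from 145, 111 and 187 CPM to 20.7, 23.4 and 33 CPM in KO cells (−2.41 ± 0.23, 2.4e-05). CYB5A, cytochrome b5, fell in both lines (−1.35 ± 0.23 and −1.13 ± 0.23, adjusted p 0.0026 and 0.0031). The 6 genes of haem modification and ALAS1 turnover had no call with copper in either line (medians −0.03 and 0.61), with 0 of them under an unadjusted p of 0.05 in wild type and 2 in KO cells in edgeR. The share of all genes at that unadjusted p was not taken, so these counts are no result about the list. DESeq2 called 0 of the list in wild type and 2 in KO cells, HCCS, which attaches haem to cytochrome c, and CLPX, a mitochondrial unfoldase, both named after their values were seen. Over all 11051 tested genes DESeq2 called 2116 in wild type and 4193 in KO cells.

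Downstream of the biliverdin reductases, 4 of 7 genes of bilirubin conjugation and transport were tested, and 1 rose with copper in wild type and 1 fell in KO cells (medians 0.32 and −0.80), beside 8.23% of all genes higher in wild type and 18.5% lower in KO cells. GSTA1, a glutathione transferase that binds bilirubin in the cytosol, fell with copper in KO cells from 31.9, 25.6 and 24.1 CPM to 2.85, 3.35 and 3.58 CPM (−2.93 ± 0.44, adjusted p 0.00057). Untreated, it was higher in KO than in wild type cells, which stood at 1.05, 2.35 and 3.65 CPM (3.39 ± 0.44, adjusted p 0.0004). GSTA1 and GSTA2 are close copies and may share reads.

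HMOX1 was set beside 9 other targets of NRF2, of which 6 rose and none fell with copper in wild type, with a median of 1.82, and 7 rose and none fell in KO cells, with a median of 1.40. Of all genes 8.23% and 15.2% rose, but this list was chosen with earlier results of these data known. GCLM, the modifier subunit of glutathione synthesis, rose by 3.51 ± 0.31 in wild type (adjusted p 3.3e-05) and 2.29 ± 0.29 in KO cells (0.00021), or 2.95 there with the libraries that stood apart set aside. TXNRD1, thioredoxin reductase, rose by 2.52 ± 0.19 (1.1e-05) and 2.21 ± 0.19 (1.3e-05). SLC7A11, the cystine importer, rose by 3.37 ± 0.24 (6.6e-06) and 3.35 ± 0.24 (4.3e-06), more than HMOX1 in KO cells on the value of the fit alone, a difference that was not tested. Without copper, GCLM was higher in KO than in wild type cells (1.23 ± 0.29, adjusted p 0.008), as was SQSTM1, an autophagy receptor (1.89 ± 0.36, 0.0031). Without the libraries that stood apart, with KO untreated then replicate 3 alone, these were 0.56 for GCLM and 0.75 for SQSTM1. NQO1 had no call in any comparison.

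The genes whose pattern was most like that of HMOX1 over the 12 libraries were HSPH1 (Pearson r = 0.993), GCLM (0.991), ZFAND2A (0.989), ANKRD11 (0.988) and TXNRD1 (0.984), with r taken on log2 scaled CPM over 7975 genes with a mean of at least 10 CPM. HSPH1 had group means of 98.7, 1847, 380 and 3348 CPM in wild type untreated, wild type copper, KO untreated and KO copper. For ALAS1 they were ZC3H12A, PSMD13 and ATP6V1A (0.964 each), and for BLVRB PPME1 (0.982), GTF3C5 (0.979) and CHMP4B (0.967). FECH was nearest to UTP3 (0.930), SPRING1 (0.923) and GCNT3 (0.909), HMOX2 to IL10RB (0.909), FARSA (0.908) and ZNF609 (0.864), and BLVRA to UQCC6 (0.934), C20orf96 (0.906) and ZFYVE19 (0.905). Among the 6 themselves the closest pairs were ALAS1 with BLVRB (0.734) and FECH with BLVRB (0.623), while HMOX1 with HMOX2 gave 0.011 and ALAS1 with HMOX2 −0.606. All these values share the same 12 libraries, whose depth and standing apart move with them, and are descriptions.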

How the data were processed

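The authors deposited raw read counts per gene, 1 file per library, with no normalization. The 3′ kit took 100 ng of RNA per sample and 75 bp were read from 1 end, per the labels' protocols. STAR 2.3.0, HTSeq and the hg19 build are named in the submitters' processing notes. The annotation release, any filters and the use of strand are not given in the sources used. Symbols came from the gene name table and, where it had none, the GENCODE annotation, and covered 45776 of 47634 identifiers and 99.5% of counts. Without molecular identifiers, counts include amplified copies, so limits cover counting error only.

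CPM is a count over the library total. The counts were filtered with filterByExpr, which left 11051 genes, scaled by TMM and tested in edgeR 4.0.16 (R 4.3.3) with a robust quasi-likelihood fit of 4 group means over all 12 libraries (biological coefficient of variation 29.1%). P-values were adjusted by Benjamini-Hochberg and called at 0.05. An SE is the log2 fold change over the root of F. The 6 genes, the 9 pathway lists and the markers were chosen with earlier results of these data known. Of each list at most 4 called genes per comparison, by smallest adjusted p, were open to naming; of the list genes, NCOA4 was not matched. Nearest patterns were taken by Pearson r. Alternatives were other size factors, DESeq2 1.42.0, no filter, fewer groups, a replicate block and leaving out libraries.

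The edgeR fit and test, and no other step, were also run on simulated data in which 200 genes were changed. That is fewer genes than were called in any of the 5 comparisons, and no simulated library was made to stand apart. The shares found may therefore differ from those in the real data. For copper in wild type (10708 genes), the test found 16% of the 2-fold and 71% of the 4-fold changes. Copper in KO (10680 genes) gave 12% and 73%, the untreated lines (10683) 7% and 57%, the lines in copper (10698) 7% and 63%, and the difference of the copper effects (10696) 0% and 36%.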

Additional observations from a re-analysis of the deposited data

Results flagged for a closer look

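Among the list genes, 5 had copper effects that differed between the lines in edgeR's quasi-likelihood test, which called 545 of all 11051 tested genes (4.93%). The count itself is no result about the lists, and the genes are described singly. MAFF, a small MAF partner of NRF2 and BACH1, rose more in the KO line, with a difference of 2.89 on the log2 scale (adjusted p 0.0066), and this call held with every single library left out. MAFG also rose more in the KO line, by 2.95 (adjusted p 0.025); the call ended without any 1 of the 9 libraries other than wild type copper replicate 3 and KO untreated replicates 1 and 3, with values of 2.61 to 3.67 over the libraries left out and 1.91 without the libraries that stood apart.

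EGR1, an immediate early transcription factor, rose less in the KO line (−1.41, adjusted p 0.034). NR1I2, the pregnane X receptor, rose with copper in wild type and was not called in KO cells, a difference of −2.30 (adjusted p 0.039). LRP1, a hemopexin receptor, differed by −1.86 (adjusted p 0.0454), and by −0.83 (adjusted p 0.059) without the libraries that stood apart. The calls of EGR1, NR1I2 and LRP1 ended without any single library other than wild type copper replicate 3 and KO untreated replicate 3, with values of −1.57 to −1.30, −2.64 to −2.08 and −2.21 to −1.44. The levels of these genes in untreated KO cells rest on libraries of which 2 stood apart, and their part in the differences was not tested.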

How the results depend on the processing

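HMOX1 kept its direction for copper in wild type, copper in KO and KO against wild type untreated under all alternatives run, and so did ALAS1 and BLVRB for copper in KO. The calls of these comparisons held under all alternatives that kept more than a single library in each group. Without the libraries that stood apart, KO untreated is replicate 3 alone, so only the direction is counted there. The log2 values ran over single libraries left out from 3.94 to 4.33, 2.37 to 2.96 and 1.59 to 2.18 for HMOX1. Elsewhere calls moved, and the cause was not tested.

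With only the groups compared in the fit, BLVRB was called with copper in wild type (0.73) and lost for the untreated KO (−1.05), ALAS1 was called between lines in copper (0.82), and the genes called, against 1648, 3721, 3521 and 1525, were 3044, 1853, 1421 and 2694 in the order copper in wild type, copper in KO, KO untreated and KO in copper. The difference of the copper effects, with 545 genes called, gave 1841 in DESeq2 and 2366 without a filter (1058 higher and 1308 lower, against 139 and 406), where BLVRB (1.32 and 1.32) and HMOX1 (−1.58 and −1.52) were called.

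BLVRA changed sign near 0: with copper in wild type to 0.020 (relative log expression factors), 0.020 (DESeq2) and 0.044 (groups compared); in KO to −0.029, −0.036 and −0.011, and −0.054 without a filter; for the difference of the effects to −0.049, −0.056 and, without a filter, −0.026.

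The 3 libraries that stood apart were chosen after seeing the data. Without them KO untreated is replicate 3 alone, its spread borrowed from the other groups. With copper in wild type, values were then 1.01 for ALAS1, 1.22 for FECH and 0.70 for BLVRB. In copper between lines they were 0.58 for ALAS1 and 0.54 for HMOX1. The untreated KO gave 1.02 for FECH, and the difference of effects gave 0.82 for BLVRB and −0.44 for HMOX1. BLVRA reversed to −0.39 with copper in KO, 0.070 in untreated KO and −0.38 for the difference of effects, HMOX2 to −0.065 in untreated KO and FECH to −0.72 for the difference. The HMOX1 share of both oxygenases was then 5.12 points higher with copper in KO and was 5.23 points above wild type in untreated KO. Genes called were 4784 for copper in wild type, 4527 for KO in copper and 1050 for the difference. Of the tested list genes, 0 then rose and 3 fell with copper in wild type for synthesis, 2 and 8 for transport, 6 and 1 for regulators, 2 and 6 for iron, 2 and 5 for haem proteins, and 7 and 0 for NRF2 targets (40% of all genes called). In KO these were 0 and 1, 4 and 7, 5 and 3, 2 and 3, 1 and 7, and 7 and 0 (39.6%).

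Leaving out single libraries, genes called ranged over 734 to 3779, 2372 to 6635, 2058 to 6738, 675 to 3561 and 13 to 5882. ALAS1 ranged over 0.50 to 0.96 with copper in wild type, −1.41 to −0.27 in untreated KO, 0.64 to 1.10 in KO in copper and 1.15 to 2.22 for the difference. BLVRB ranged over 0.61 to 0.81, −1.46 to −0.70 and, for the difference, 0.99 to 1.72, and HMOX1 over −1.88 to −1.22 for the difference. HMOX2 ranged over −0.039 to 0.48 with copper in wild type and −0.10 to 0.40 in untreated KO, BLVRA over −0.074 to 0.059, −0.27 to 0.25, −0.56 to −0.042 and −0.25 to 0.22, and FECH over −0.27 to 0.65 for the difference.

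Same-numbered libraries were not more alike on average. Their deviations correlated at −0.22 to 0.61 (mean −0.017), against −0.64 to 0.41 (mean 0.0053) for other numbers. Between wild type copper and KO untreated, the same-numbered values were 0.49, −0.17 and 0.61 for replicates 1, 2 and 3. An average over all groups cannot decide whether the libraries of some groups were paired. With the replicate number as a block, the genes called were 1490, 3714, 3521, 1276 and 113, BLVRA reversed to 0.00037 with copper in wild type, and no call of the 6 genes changed. Of list genes other than these 6, CYCS alone reversed, to 0.79 with copper in KO without the libraries that stood apart. FECH had 2 to 38 counts per library, and ALAS1 and BLVRB in KO untreated had 3 to 116; how far depth sets their calls was not tested.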
